A study of Mus musculus with 21 samples.

Results

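Perineuronal nets are condensed extracellular matrix around the cell body and proximal dendrites of certain neurons, most of all the fast-spiking interneurons that contain parvalbumin. In the net, chains of hyaluronan are extruded by hyaluronan synthases at the cell surface, chondroitin sulphate proteoglycans of the lectican family bind to these chains, link proteins hold the bond in place, and tenascins cross-link the other ends of the lecticans. The same components also form the looser matrix of the brain and of the nodes of Ranvier, and glial cells make much of it.

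The 10 genes described here were chosen by name from the 64361 gene rows of the count table: the lecticans Acan, Bcan, Ncan and Vcan, the link proteins Hapln1, Hapln2 and Hapln4, the tenascins Tnr and Tnc, and the hyaluronan synthase Has2. Each of the 10 symbols matched exactly 1 row. Their RNA was counted with prime-seq, a bulk method that captures and sequences transcripts from their polyadenylated 3′ side, in 21 libraries from cortex and hippocampus of GA-Camk2a and control mice aged 30 to 40 weeks on a C57BL/6J background. GA-Camk2a mice carry a floxed transgene for poly-GA, a dipeptide repeat protein made from the C9orf72 repeat expansion of ALS, tagged with GFP and switched on in excitatory neurons by Camk2a-Cre. The label of the control mice says only that they are controls, and which alleles they carry is not given in the sources used here. There were 5 control and 6 GA-Camk2a libraries of cortex, and 4 control and 6 GA-Camk2a libraries of hippocampus. Each library came from 1 mouse, and 10 of the 11 mice gave both tissues. These numbers follow the labels, and the study's text gives the control numbers of the tissues the other way round. According to the methods, the GA-Camk2a mice came from 2 litters.

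Library totals lay between 1048201 and 5888102 counts (median 1975173), and the hippocampus controls were the deepest group with a median of 3732867. The labels placed each library in batch 1 or batch 2, and each group held libraries of both batches. The GFP row held only 17 counts over all libraries and could not check the transgene. Hippocampus markers summed to between 597 and 801 CPM, that is counts divided by the library total and scaled to 1e6, in the libraries labelled hippocampus and to between 150 and 223 CPM in those labelled cortex. Of the cortex markers, the 5 other than Rorb summed to between 133 and 381 CPM in cortex libraries and between 109 and 140 CPM in hippocampus libraries. Rorb went the other way in the hippocampus libraries of control mouse 11 (1455 CPM) and GA-Camk2a mice 16 (5303 CPM) and 30 (4414 CPM), against 86.6 to 165 CPM in the other hippocampus libraries and 133 to 612 CPM in cortex. Choroid plexus markers, led by Ttr, ranged from 1810 to 32723 CPM in hippocampus controls and from 1839 to 55530 CPM in GA-Camk2a hippocampus, so mice of the same genotype differed widely in them. The members' results in hippocampus are also given, where a call or direction rests on them, without the 5 hippocampus libraries above 20000 CPM of Ttr and without the 3 libraries rich in Rorb, both chosen after seeing the data. The libraries of mice 16 and 30 belong to both sets. Cortex libraries also differed in striatal markers, which summed to between 856 and 1380 CPM in controls and between 242 and 561 CPM in GA-Camk2a mice, and their part in the cortex results was not tested. In bulk tissue, fewer cells of a type and less RNA per cell cannot be told apart.

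Ncan and Hapln4 are neighbouring genes on chromosome 8, on opposite strands. In the GENCODE M21 annotation Bcan likewise lies beside Hapln2 on chromosome 3, Vcan beside Hapln1 on chromosome 13, and Acan beside Hapln3 on chromosome 7, so each lectican gene has a link protein gene as a neighbour. To show the stretch upstream of the gene that changed and of a lectican that did not pass the test, the 250 bases before the annotated start of Ncan (chr8:70120845-70121094, minus strand) and of Bcan (chr3:88000357-88000606, minus strand) are printed 5′ to 3′ from RefSeq sequence of build GRCm38.p6, which is not the build of the counts. Capitals mark matches on either strand to the letters TATAAA of the classical promoter box of that name, to the letters CCAAT of another such box, or to the letters GGGCGG of the GC box.

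Ncan: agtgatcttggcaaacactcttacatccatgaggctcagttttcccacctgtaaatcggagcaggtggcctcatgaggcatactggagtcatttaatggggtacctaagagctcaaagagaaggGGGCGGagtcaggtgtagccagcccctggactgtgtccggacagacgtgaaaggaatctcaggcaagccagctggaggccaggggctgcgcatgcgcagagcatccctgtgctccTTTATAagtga

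Bcan: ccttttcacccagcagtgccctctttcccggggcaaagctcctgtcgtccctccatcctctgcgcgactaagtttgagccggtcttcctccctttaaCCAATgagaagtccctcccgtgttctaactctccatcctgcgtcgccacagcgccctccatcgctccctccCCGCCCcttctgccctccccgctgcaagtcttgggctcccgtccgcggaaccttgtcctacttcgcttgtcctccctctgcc

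The Ncan window was 54.4% G and C with 6 CpG dinucleotides, and the Bcan window was 62% G and C with 16. Each held 1 match to GGGCGG, which 32.7% of the 32851 windows of this length held. Ncan alone of the pair held TATAAA, found in 12.4% of windows, and Bcan alone held CCAAT, found in 33.9%. The E-box letters CANNTG occurred 4 times before Ncan and 0 times before Bcan, against 66.2% of all windows with at least 1 match. The AP-1 letters TGANTCA, found in 6.75% of all windows, matched 0 times in both. The same held for the CRE letters TGACGTCA, found in 1.55%, and for the STAT letters TTCNNNGAA, found in 7.02%. A match to such short letters is a description of the sequence and not evidence of a bound site. Of the 10 genes, 8 had a window in the table, and Hapln4 and Has2 had none.

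**Figure D1:**
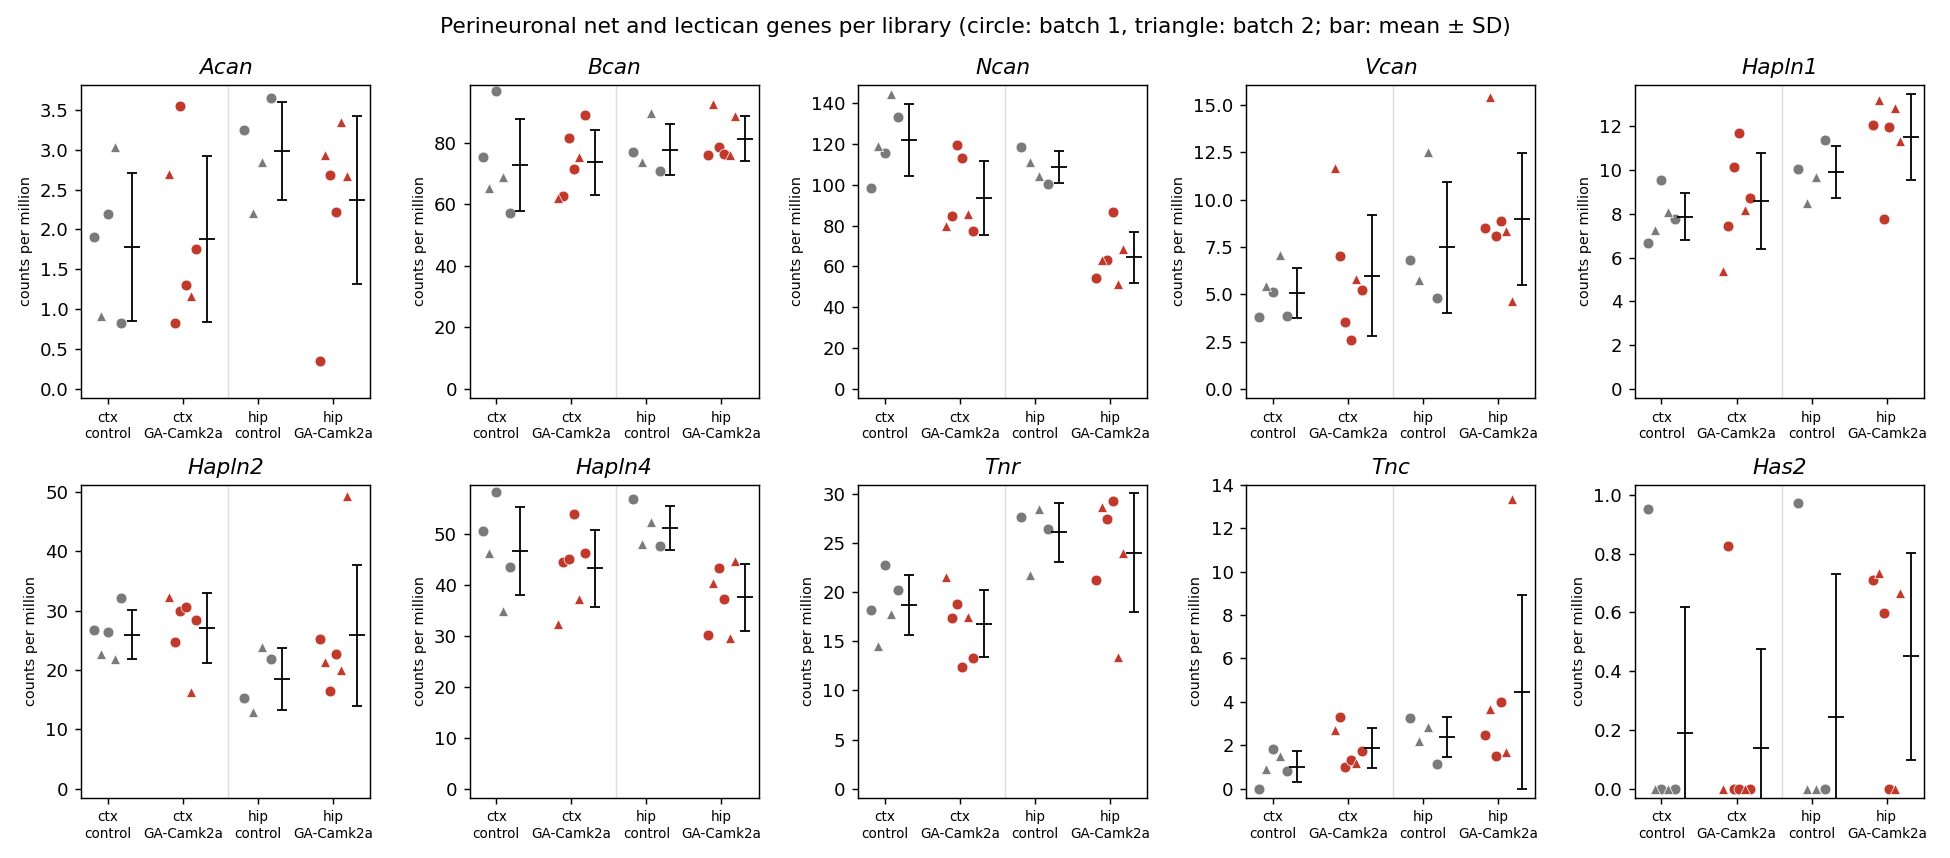
CPM (y axis, linear) of each of the 10 genes in every library of cortex (ctx) and hippocampus (hip), grey for control and red for GA-Camk2a, circles for batch 1 and triangles for batch 2, with the mean and SD of each group beside its points and SD bars cut at the lower axis. The 6 GA-Camk2a hippocampus libraries sit below all 4 controls for Ncan and for Hapln4, while the groups overlap for the other 8 genes in hippocampus and for all 10 in cortex. Of all genes tested in hippocampus 4.02% were separated in that direction.

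To ask whether poly-GA in excitatory neurons goes along with a change in net and matrix genes, GA-Camk2a mice were compared with controls in each tissue, with edgeR's quasi-likelihood test on counts and Benjamini-Hochberg adjustment over all genes tested. Of the 10 genes, 7 passed the filter on low counts in both tissues (Bcan, Ncan, Vcan, Hapln1, Hapln2, Hapln4 and Tnr), and Acan, Tnc and Has2 were too low for it. In hippocampus 2 of the 7 passed an adjusted p of 0.05, Ncan and Hapln4, both lower, where 10.9% of the 14884 genes tested passed in either direction and 5.97% passed as lower. In cortex 1 of the 7 passed, Ncan, again lower, where 12.5% of 13058 genes passed in either direction and 6.17% as lower. The median log2 fold change over all genes tested was 0.02 in hippocampus and -0.01 in cortex.

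Among the lecticans, Ncan (ENSMUSG00000002341) encodes neurocan, a brain proteoglycan of neurons and astrocytes whose core protein is cleaved in the adult. In hippocampus controls it measured 119, 111, 104 and 101 CPM, and in GA-Camk2a hippocampus the lowest, median and highest libraries measured 51.3, 63.2 and 86.5 CPM. All 6 GA-Camk2a libraries were below all 4 controls, a separation in this direction that 4.02% of the tested genes had. The mean was 64.5 ± 12.5 CPM (SD, n = 6) in GA-Camk2a mice and 109 ± 7.95 CPM (SD, n = 4) in controls, a ratio of 0.594. The log2 fold change of Ncan was -0.80 ± 0.11 (SE, edgeR adjusted p = 0.000328), with a 95% interval from -1.04 to -0.56. Batch 2 alone gave -0.90 (edgeR adjusted p = 0.00261) and batch 1 alone -0.73 with an adjusted p of 0.129. Without the 5 libraries rich in Ttr, the log2 fold change of Ncan was -0.62 (edgeR adjusted p = 0.0341), and without the 3 rich in Rorb it was -0.70 (edgeR adjusted p = 0.00370). Ncan therefore fell in hippocampus with and without these libraries, and the single-batch fit in batch 1, on 2 control and 3 GA-Camk2a libraries, kept the direction but not the call.

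In cortex Ncan measured 98.3, 119, 115, 144 and 133 CPM in the controls, and 77.3, 85.1 and 120 CPM in the lowest, median and highest GA-Camk2a libraries. The groups overlapped, with 4 of the 6 GA-Camk2a libraries below all controls, as 11.3% of the tested genes had for at least 4. Those of mice 30 and 34 lay within the control range. The mean was 93.4 ± 18.1 CPM (SD, n = 6) against 122 ± 17.6 CPM (SD, n = 5). The log2 fold change of Ncan was -0.39 ± 0.12 (SE, edgeR adjusted p = 0.0402) with a 95% interval from -0.65 to -0.14, close to the threshold. With DESeq2 the same change had an adjusted p of 0.0551, and leaving out any of 7 of the 11 libraries (control mice 20, 37 and 38 and GA-Camk2a mice 16, 23, 35 and 41) ended the call, with values from -0.46 to -0.31 over all 11 omissions. Batch 1 alone gave -0.25 (edgeR adjusted p = 0.391) and batch 2 alone -0.68 (edgeR adjusted p = 0.0462). The fall of Ncan in cortex thus kept its direction in every one of these fits, but its call did not hold in all of them.

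Cell type markers moved between the genotypes in the same libraries. Excitatory neuron markers, 6 genes with none at 0, summed to between 2051 and 2593 CPM in hippocampus controls and between 1084 and 1466 CPM in GA-Camk2a hippocampus, and to between 1853 and 2347 against 1195 and 1646 CPM in cortex. Astrocyte markers, 9 genes with none at 0, summed to between 2851 and 3354 CPM in hippocampus controls and between 4387 and 5964 CPM in GA-Camk2a hippocampus, and to between 2380 and 3209 against 3467 and 4971 CPM in cortex. Microglia markers, 9 genes with none at 0, ranged from 357 to 432 CPM and from 731 to 1219 CPM in hippocampus, and from 402 to 445 and 1066 to 1701 CPM in cortex. Parvalbumin interneuron markers, 7 genes with none at 0, overlapped between the genotypes, at 277 to 369 CPM in controls and 244 to 398 CPM in GA-Camk2a hippocampus, and at 426 to 470 and 390 to 528 CPM in cortex. Inhibitory neuron markers, 6 genes, overlapped in hippocampus but were higher in every GA-Camk2a cortex library, at 1166 to 1537 CPM against 1027 to 1104 CPM in controls. Fibroblast and pericyte markers, 7 genes, were higher in every GA-Camk2a library of both tissues, at 326 to 801 against 199 to 268 CPM in hippocampus and 209 to 300 against 159 to 198 CPM in cortex. The part of these shifts in the lower Ncan and Hapln4 counts was not tested.

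Bcan (ENSMUSG00000004892), which encodes brevican, an abundant lectican of adult brain, showed no detectable change. It measured 77.0, 73.7, 89.5 and 70.7 CPM in hippocampus controls and 75.8, 77.4 and 92.6 CPM in the lowest, median and highest GA-Camk2a hippocampus libraries. The log2 fold change of Bcan was 0.03 ± 0.08 (SE, edgeR adjusted p = 0.876) in hippocampus, with a 95% interval from -0.15 to 0.21. In cortex Bcan measured 75.4, 65.4, 96.7, 68.9 and 57.1 CPM in controls and 62.0, 73.3 and 88.9 CPM in the lowest, median and highest GA-Camk2a libraries. The change was 0.03 ± 0.13 on the log2 scale (SE, edgeR adjusted p = 0.907) with an interval from -0.23 to 0.30. The libraries of both genotypes overlapped throughout. The hippocampus interval of Bcan lay wholly above that of Ncan from the same libraries, though the difference between the genes was not itself tested.

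The other lecticans were far less deeply counted. Vcan (ENSMUSG00000021614), the gene of versican, which oligodendrocyte precursors and other cells make, had between 4 and 34 counts per library. It measured 6.82, 5.77, 12.5 and 4.79 CPM in hippocampus controls and 4.67, 8.43 and 15.4 CPM in the lowest, median and highest GA-Camk2a hippocampus libraries, and its change of 0.35 ± 0.29 on the log2 scale (SE, edgeR adjusted p = 0.490) had an interval from -0.26 to 0.96. In cortex Vcan measured between 3.82 and 7.09 CPM in controls and between 2.60 and 11.7 CPM in GA-Camk2a mice, with a change of 0.25 ± 0.28 (SE, edgeR adjusted p = 0.628). A change of Vcan by as much as the fall of Ncan, but upward, was not excluded at this depth in either tissue. Acan (ENSMUSG00000030607) encodes aggrecan, the lectican by which perineuronal nets are most often recognised. It had 1 to 16 counts per library, and measured 3.25, 2.21, 2.85 and 3.65 CPM in hippocampus controls and 0.354, 2.68 and 3.34 CPM in the lowest, median and highest GA-Camk2a hippocampus libraries. In cortex Acan measured between 0.831 and 3.04 CPM in controls and between 0.825 and 3.55 CPM in GA-Camk2a mice. Without the filter its log2 fold change was -0.50 ± 0.39 (SE, edgeR adjusted p = 0.792) in hippocampus and 0.07 ± 0.50 (SE, edgeR adjusted p = 0.992) in cortex. No change of Acan was detectable at this depth.

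Among the link proteins, Hapln4 (ENSMUSG00000007594) encodes a brain link protein, also named Bral2, that joins lecticans, brevican above all, to hyaluronan in nets. In hippocampus it measured 56.8, 48.1, 52.4 and 47.6 CPM in the controls, and 29.5, 38.8 and 44.7 CPM in the lowest, median and highest GA-Camk2a libraries. As for Ncan, all 6 GA-Camk2a libraries lay below all 4 controls, which held for 4.02% of the tested genes. The means were 37.6 ± 6.51 CPM (SD, n = 6) and 51.2 ± 4.31 CPM (SD, n = 4), a ratio of 0.733. The log2 fold change of Hapln4 was -0.49 ± 0.12 (SE, edgeR adjusted p = 0.0159) with a 95% interval from -0.75 to -0.23. Neither batch alone passed the test (-0.53, edgeR adjusted p = 0.268 in batch 1, and -0.46, adjusted p = 0.170 in batch 2). The call of Hapln4 also ended without the control library of mouse 11 (-0.44, edgeR adjusted p = 0.0623), with counts thinned to the smallest library (-0.40, adjusted p = 0.0887), without the libraries rich in Ttr (-0.50, adjusted p = 0.162) and without those rich in Rorb (-0.45, adjusted p = 0.0668). The fall of Hapln4 was thus of nearly the same size in each of these fits.

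In cortex Hapln4 measured 50.6, 46.3, 58.3, 34.9 and 43.5 CPM in controls and 32.4, 44.8 and 53.9 CPM in the lowest, median and highest GA-Camk2a libraries. Its groups overlapped there, and the log2 fold change was -0.11 ± 0.12 (SE, edgeR adjusted p = 0.620) with an interval from -0.35 to 0.14.

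Hapln1 (ENSMUSG00000021613), the link protein also known from cartilage and made by net-bearing neurons, measured 10.1, 8.49, 9.69 and 11.4 CPM in hippocampus controls and 7.76, 12.01 and 13.2 CPM in the lowest, median and highest GA-Camk2a hippocampus libraries. Of the 6 GA-Camk2a libraries, 4 lay above all controls, as 22% of the tested genes had for at least 4, and that of mouse 30 lay below all of them. For Hapln1 the log2 fold change was 0.15 ± 0.19 (SE, edgeR adjusted p = 0.685) in hippocampus and 0.11 ± 0.21 (SE, adjusted p = 0.802) in cortex, where controls measured between 6.68 and 9.53 CPM and GA-Camk2a libraries between 5.39 and 11.7 CPM. Over the fits without 1 library its hippocampus value ranged from 0.044 to 0.27, with a lowest edgeR adjusted p of 0.376.

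Hapln2 (ENSMUSG00000004894), the link protein of the nodes of Ranvier and a product of oligodendrocytes, measured 15.3, 12.9, 23.9 and 21.9 CPM in hippocampus controls and 16.4, 22.0 and 49.4 CPM in the lowest, median and highest GA-Camk2a hippocampus libraries. The highest value belonged to mouse 41, whose hippocampus library also had the highest summed oligodendrocyte markers (4600 CPM, against 2315 to 3483 CPM in the other 5 GA-Camk2a hippocampus libraries) and the highest fibroblast and pericyte markers (801 CPM, against 326 to 357 CPM). The log2 fold change of Hapln2 in hippocampus was 0.43 ± 0.26 (SE, edgeR adjusted p = 0.319) and, without that library, 0.18 (edgeR adjusted p = 0.655). In cortex Hapln2 measured 26.7, 22.7, 26.4, 21.8 and 32.1 CPM in controls and between 16.3 and 32.4 CPM in GA-Camk2a mice. The change was 0.01 ± 0.15 on the log2 scale (SE, edgeR adjusted p = 0.974) with an interval from -0.30 to 0.33.

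Among the tenascins, Tnr (ENSMUSG00000015829) encodes tenascin-R, which oligodendrocytes and some interneurons secrete and which cross-links lecticans in nets. It measured 27.6, 21.7, 28.5 and 26.4 CPM in hippocampus controls and 13.4, 25.7 and 29.3 CPM in the lowest, median and highest GA-Camk2a hippocampus libraries. For Tnr the log2 fold change was -0.15 ± 0.16 (SE, edgeR adjusted p = 0.610) in hippocampus, with an interval from -0.49 to 0.19, and -0.20 ± 0.17 (SE, adjusted p = 0.481) in cortex, with an interval from -0.55 to 0.15. In cortex Tnr measured 18.1, 14.5, 22.7, 17.7 and 20.2 CPM in controls and 12.3, 17.4 and 21.6 CPM in the lowest, median and highest GA-Camk2a libraries, so the groups overlapped in both tissues.

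Tnc (ENSMUSG00000028364), the gene of tenascin-C, which is abundant in developing and injured tissue and is made by astrocytes, had 0 to 20 counts per library. It measured 3.25, 2.21, 2.85 and 1.14 CPM in hippocampus controls and 1.49, 3.08 and 13.3 CPM in the lowest, median and highest GA-Camk2a hippocampus libraries, the highest again in mouse 41. In cortex controls Tnc measured 0, 0.908, 1.83, 1.52 and 0.831 CPM, where 0 allows up to 2.86 CPM (3 counts of that library's total), and in GA-Camk2a cortex 1.01, 1.52 and 3.30 CPM in the lowest, median and highest libraries. Without the filter its log2 fold change in hippocampus was 0.71 ± 0.37 (SE, edgeR adjusted p = 0.576), and without the library of mouse 41 as well it was 0.07 ± 0.42 (SE, adjusted p = 0.974), so the value rests on that library. In cortex it was 0.69 ± 0.54 (SE, adjusted p = 0.690). Has2 (ENSMUSG00000022367), which encodes an enzyme that makes hyaluronan, had 12 counts in all, at most 3 in 1 library, and 0 in 14 of the 21 libraries. A count of 0 allows between 0.51 and 2.73 CPM of Has2 in those libraries, and since no library held more than 3 counts, no fold change is given for it. No change of Tnc or Has2 was detectable at this depth.

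**Figure D2:**
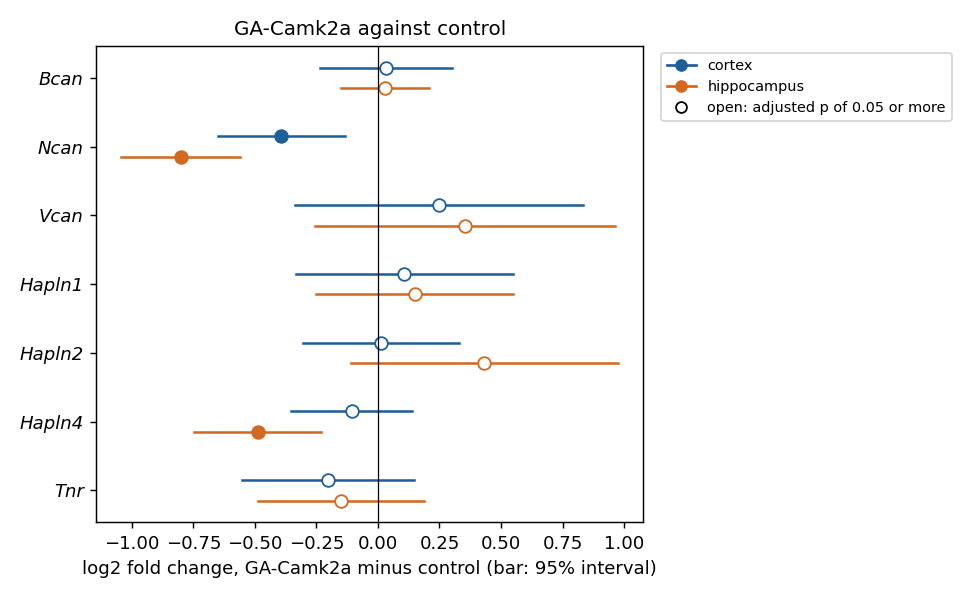
Log2 fold change of GA-Camk2a against control (x axis; points to the left of 0 are lower in GA-Camk2a) for the 7 genes that passed the filter, blue for cortex and orange for hippocampus, with 95% intervals and filled points for an adjusted p under 0.05. Ncan lies at -0.39 in cortex and -0.80 in hippocampus and Hapln4 at -0.49 in hippocampus, and the intervals of the other points include 0.

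Next, hippocampus was compared with cortex within each genotype, to place the net genes by tissue. In control mice 1 of the 7 genes passed the test, Hapln2, which was lower in hippocampus, where 16.3% of 14435 genes passed in either direction and 7.6% as lower. The mean of Hapln2 was 18.5 ± 5.25 CPM (SD, n = 4) in control hippocampus and 25.9 ± 4.09 CPM (SD, n = 5) in control cortex, and 3 of the 4 mice with both tissues had less in hippocampus. Its log2 fold change was -0.57 ± 0.19 (SE, edgeR adjusted p = 0.0439), but without the library of mouse 11 rich in Rorb it was -0.43 (edgeR adjusted p = 0.180), with the mouse as a block it was -0.43 (adjusted p = 0.172) and with DESeq2 -0.56 (adjusted p = 0.0707). The block fit holds only mice with both tissues, so it also lacks the cortex library of mouse 38. The call of Hapln2 also ended in 6 of the 9 fits without 1 library, namely without the cortex libraries of mice 11, 20, 37 or 38 or the hippocampus libraries of mice 11 or 20. Tnr leaned the other way, by 0.41 ± 0.14 on the log2 scale (SE, edgeR adjusted p = 0.0602), and did not pass. It was higher in hippocampus in 4 of 4 control mice, as Hapln1 and Acan also were. The share of all genes with this direction in every control mouse was not counted. In control mice Ncan differed by -0.23 ± 0.11 on the log2 scale (SE, edgeR adjusted p = 0.150), Hapln4 by 0.11 ± 0.13 (SE, adjusted p = 0.599) and Bcan by 0.04 ± 0.13 (SE, adjusted p = 0.884).

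In GA-Camk2a mice 1 of the 7 genes passed, Ncan, which was lower in hippocampus, where 33.2% of 13098 genes passed in either direction and 15.9% as lower. Ncan was lower in hippocampus than in cortex of the same mouse in 6 of 6 GA-Camk2a mice, and in 3 of 4 control mice. Its log2 fold change in GA-Camk2a mice was -0.59 ± 0.12 (SE, edgeR adjusted p = 0.00159), with the mouse as a block -0.65 (edgeR adjusted p = 0.000258), and without the libraries rich in Ttr -0.39 (edgeR adjusted p = 0.0724), where the call was lost. Without the libraries rich in Rorb it was -0.44 (edgeR adjusted p = 0.0350). Hapln4 was lower in hippocampus in 6 of 6 GA-Camk2a mice and in 1 of 4 control mice. Its gap from cortex to hippocampus ran from 46.2 to 44.7 CPM in mouse 41 up to 53.9 to 37.3 CPM in mouse 34. Its log2 fold change in GA-Camk2a mice was -0.27 ± 0.13 (SE, edgeR adjusted p = 0.110) and did not pass. The share of all genes that were lower in hippocampus in every GA-Camk2a mouse was not counted, so these counts of mice are a description. Tnr again leaned to hippocampus, by 0.46 ± 0.18 (SE, edgeR adjusted p = 0.0597), and was higher there in 4 of 6 GA-Camk2a mice. It passed without the libraries rich in Ttr (0.57, edgeR adjusted p = 0.0465) but not without those rich in Rorb (0.42, adjusted p = 0.191). Hapln2 differed by -0.22 ± 0.22 (SE, edgeR adjusted p = 0.464) in GA-Camk2a mice.

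**Figure D3:**
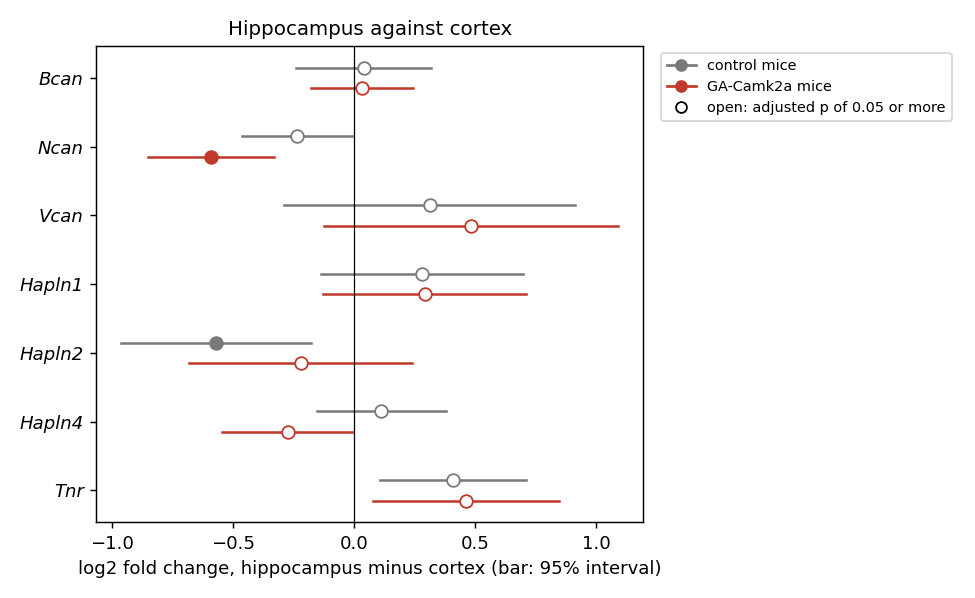
Log2 fold change of hippocampus against cortex (x axis; points to the left of 0 are lower in hippocampus) for the 7 genes that passed the filter, grey for control mice and red for GA-Camk2a mice, with 95% intervals and filled points for an adjusted p under 0.05. Hapln2 at -0.57 in control mice and Ncan at -0.59 in GA-Camk2a mice are the filled points, and Tnr lies at 0.41 and 0.46 with open points.

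Whether the genotype effect itself differed between the tissues was tested as a contrast of the 4 group means over all 21 libraries. Of the 7 genes, 0 passed with edgeR and 0 with limma-voom, and DESeq2 passed 0 of the 5 to which it gave an adjusted p (all but Vcan and Hapln1), where 0.4% of 14751 genes passed with edgeR. At an unadjusted p under 0.05 edgeR gave 2 of the 7, Ncan and Hapln4, where 10% of all genes tested had such a p. The fall of Ncan was larger in hippocampus by -0.41 ± 0.18 on the log2 scale (SE, edgeR adjusted p = 0.425), with a 95% interval from -0.78 to -0.04. That of Hapln4 was larger in hippocampus by -0.42 ± 0.17 (SE, edgeR adjusted p = 0.386), with an interval from -0.77 to -0.06. After adjustment over all genes the tissues could not be said to differ for either gene.

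**Figure D4:**
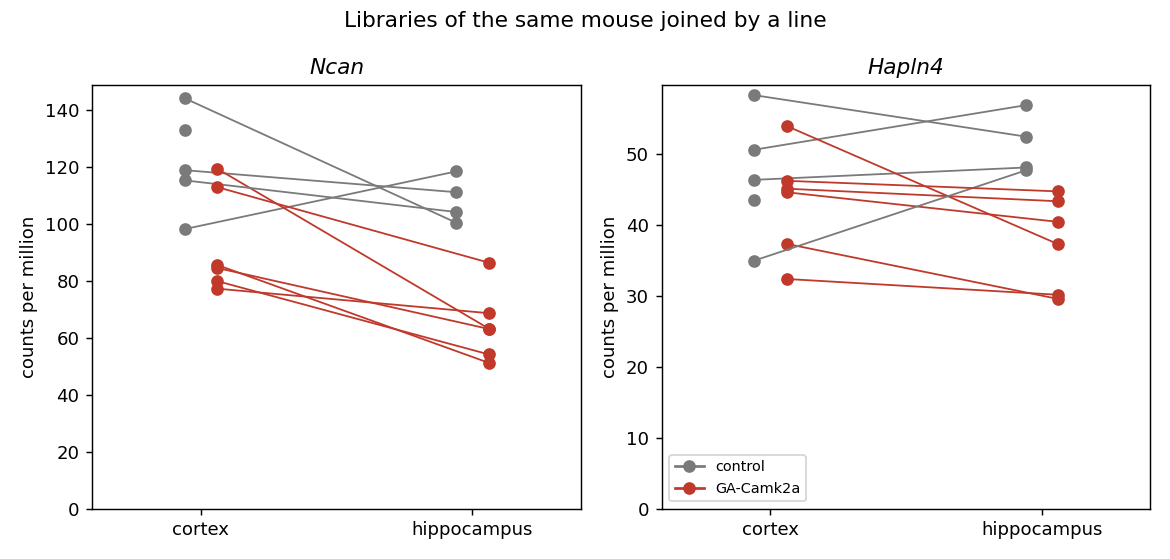
CPM (y axis, from 0) of Ncan and of Hapln4 in cortex and hippocampus, with a line joining the libraries of the same mouse, grey for control and red for GA-Camk2a. A point of control cortex stands alone because that mouse gave no hippocampus library. For both genes all 6 red lines go down from cortex to hippocampus, and 3 of the 4 grey lines go down for Ncan and 1 of the 4 for Hapln4. The share of all genes with such lines was not counted.

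The order of the 4 groups can be read from the means of Ncan, which were 122 CPM in control cortex, 109 CPM in control hippocampus, 93.4 CPM in GA-Camk2a cortex and 64.5 CPM in GA-Camk2a hippocampus. In this order control cortex and control hippocampus did not pass their test, GA-Camk2a cortex and hippocampus passed theirs with overlapping ranges and not without the libraries rich in Ttr, and control hippocampus against GA-Camk2a cortex was not tested. The means of Hapln4 ran from 51.2 CPM in control hippocampus through 46.7 CPM in control cortex and 43.2 CPM in GA-Camk2a cortex to 37.6 CPM in GA-Camk2a hippocampus, and no neighbours in this order passed their test. These levels order the groups for a gene and not the genes among each other.

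Beyond the group means, the better counted members did not vary as 1 block from library to library. After group means and batch were removed, the correlation of log2 CPM over the 21 libraries was 0.60 between Bcan and Hapln4, 0.21 between Ncan and Hapln4, and -0.05 between Bcan and Ncan. Among 8457 genes with an average log2 CPM of at least 4, the genes most like Ncan were B930095G15Rik (r = 0.86), Tspyl1 (r = 0.85) and Mn1 (r = 0.84). Those most like Hapln4 were Rapgef4 (r = 0.82), Rps6kb1 (r = 0.82) and Cpsf7 (r = 0.80), and those most like Bcan were Ppp2r2c (r = 0.86), Dlst (r = 0.86) and Gm44509 (r = 0.83). Hapln2 was nearest to Nek6 (r = 0.87), Grb14 (r = 0.85) and Pdlim2 (r = 0.84), and Tnr to Tarsl2 (r = 0.88), Olfr482 (r = 0.86) and Tmem8b (r = 0.83). These are the highest of many coefficients over points that share depth and dissection, and they are given as a description. No member that reached this level was among them. Acan, Vcan, Hapln1, Tnc and Has2 were below it and could not have been.

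The genes that act on the same matrix were described from 4 lists. Of 14 other hyaluronan genes, a list that is not complete, 4 were tested in cortex and 6 in hippocampus, and 2 passed as higher in each tissue, where 6.35% of all genes tested rose in cortex and 4.97% in hippocampus. Hexa, which encodes part of a lysosomal enzyme that trims matrix sugar chains, rose by 0.83 on the log2 scale in cortex and 0.54 in hippocampus. Cd44, the main hyaluronan receptor, measured 4.66 ± 3.07 CPM (SD, n = 5) in control cortex and 11.2 ± 3.80 CPM (SD, n = 6) in GA-Camk2a cortex, a difference of 1.11 ± 0.33 on the log2 scale (SE, adjusted p = 0.0280 with edgeR). In hippocampus Cd44 measured 4.86 ± 1.96 CPM (SD, n = 4) and 19.8 ± 6.42 CPM (SD, n = 6), a difference of 2.07 ± 0.29 on the log2 scale (SE, adjusted p = 0.000307 with edgeR). In both tissues Cd44 reached the filter on low counts only with the GA-Camk2a libraries, so its calls are a description, and 1 gene of the list rose in each tissue besides it. In cortex the count fell to 1, as Cd44 no longer passed, without the control library of mouse 31 or 37 or the GA-Camk2a library of mouse 16, 23 or 30. It also fell in 5 of 10 other fits, to 1 with limma-voom, no batch term, thinned counts or batch 1 alone and to 0 in batch 2 alone. In hippocampus it fell to 1, as Hexa no longer passed, without the control library of mouse 20 or 31 and without the libraries rich in Ttr, and to 0 in batch 1 alone. The median log2 fold change of the tested genes of this list was 0.43 in cortex and 0.48 in hippocampus, against -0.01 and 0.02 over all genes. These medians rest on 4 and 6 genes and include Cd44, so they are a description and not a test of the list.

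Of 25 genes for chondroitin sulphate chain synthesis and sulphation, 21 were tested in each tissue and 1 fell in each, where 6.17% of all genes tested fell in cortex and 5.97% in hippocampus, with list medians of -0.06 in cortex and -0.03 in hippocampus. In cortex it was Xylt1, which starts the chain on the core protein (-0.68 ± 0.20, SE, edgeR adjusted p = 0.0245), and in hippocampus B3gat3, which completes the linker (-0.32 ± 0.09, SE, edgeR adjusted p = 0.0351). The call of Xylt1 ended in 3 of 11 fits without 1 library (those of control mouse 31 and GA-Camk2a mice 23 and 41) and in 3 of 10 others (thinned counts and each batch alone). That of B3gat3 ended in 6 of 10 fits without 1 library (those of control mice 11, 20, 31 and 37 and GA-Camk2a mice 16 and 35), with DESeq2, with no filter, in each batch alone, and without the libraries rich in Ttr or in Rorb. The hippocampus count of the list ranged from 0 to 2 over these fits.

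Of 20 lectican-cleaving proteases and their inhibitors, 11 were tested in cortex and 12 in hippocampus, and 3 rose in each, where 6.35% of all genes tested rose in cortex and 4.97% in hippocampus. The hippocampus count was 5 with no filter and 1 in batch 1 alone. Ctss, a cathepsin that is also a microglia marker, rose by a log2 fold change of 1.86 in cortex and 1.74 in hippocampus, and Ctsb, another cathepsin, by 0.69 and 0.63. Timp2, an inhibitor of metalloproteinases, rose by 0.61 in hippocampus. Timp1, another such inhibitor, measured 1.23 ± 0.57 CPM (SD, n = 5) in control cortex and 5.77 ± 0.68 CPM (SD, n = 6) in GA-Camk2a cortex, with a log2 fold change of 2.28. It reached the filter on low counts only through the GA-Camk2a libraries and was tested in only 2 of the 11 fits without 1 library, so its call is a description, and 2 genes of the list rose in cortex besides it. The genes that rose were lysosomal cathepsins and inhibitors, and the tested genes of the Adamts, Mmp and Adam families, which hold the best known lectican-cleaving enzymes, did not pass. The list medians were 0.21 in cortex, with Timp1 among the genes, and 0.33 in hippocampus, and they are a description.

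Of 20 chondroitin sulphate receptors and net-associated proteins, 17 were tested in cortex and 18 in hippocampus, and 2 rose and 4 fell in each, where 6.35% of all genes tested rose and 6.17% fell in cortex and 4.97% rose and 5.97% fell in hippocampus. Of the 6 calls in cortex 3 were left in batch 1 alone and without the library of control mouse 31 or 37 or GA-Camk2a mouse 35, and 1 in batch 2 alone, and of the 6 in hippocampus 1 was left in batch 1 alone. Those that rose were Sparc, a matricellular protein of glia, with changes of 0.70 in cortex and 0.55 in hippocampus, and its relative Sparcl1 with 0.49 and 0.56. Nptxr, the receptor of the neuronal pentraxins that gather at synapses on parvalbumin interneurons, changed by -0.52 in cortex and -0.69 in hippocampus, the pentraxin Nptx2 had -0.78 in cortex, and Nptx1 had -0.68 in hippocampus. The remaining calls, named after their values were seen, were Rtn4r (-0.60) and Cntn1 (-0.30) in cortex and Rtn4rl1 (-0.37) and Cntn1 (-0.25) in hippocampus, all lower. Without 1 library the call ended in 9 of 11 cortex fits for Rtn4r (all but those without control mouse 11 or GA-Camk2a mouse 23) and in 7 of 11 for Cntn1 (control mice 31, 37 and 38 and GA-Camk2a mice 16, 23, 35 and 41). In hippocampus it ended in 8 of 10 for Cntn1 (all but GA-Camk2a mice 34 and 41) and in 2 of 10 for Rtn4rl1 (control mice 20 and 37), and for both without the libraries rich in Ttr or in Rorb. Nptx2 lost its call without the cortex library of control mouse 31 or 37 or GA-Camk2a mouse 35, and in batch 1 alone, where its log2 fold change was -0.38 (edgeR adjusted p = 0.303) against -1.78 in batch 2 alone. In cortex the call also ended in 6 of 10 other fits for Rtn4r and in 9 of 10 for Cntn1. In hippocampus Sparcl1 lost its call without the libraries rich in Ttr (0.53, edgeR adjusted p = 0.0606) but not without those rich in Rorb, and Sparc, Nptxr, Nptx1, Ctss, Ctsb and Timp2 still passed with either set left out. The list medians were -0.15 in cortex and -0.01 in hippocampus. The markers of microglia and astrocytes were higher and those of excitatory neurons lower in the same GA-Camk2a libraries, as given above, and their part in these lists was not tested.

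**Figure D5:**
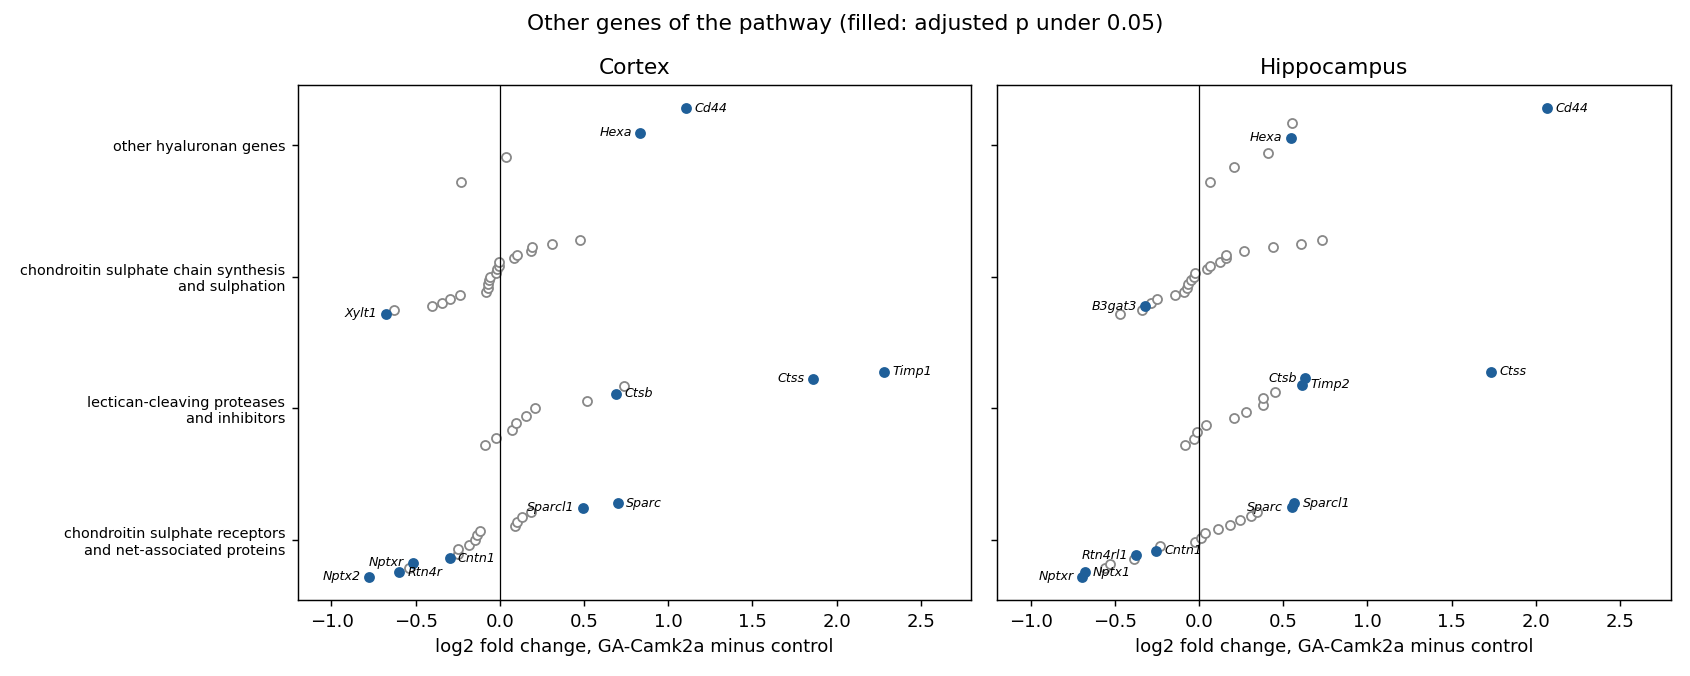
Log2 fold change of GA-Camk2a against control (x axis) for every tested gene of the 4 lists in cortex and hippocampus, each list ordered by its values from bottom to top, with filled and named points for an adjusted p under 0.05. Timp1 at 2.28 in cortex and Cd44 at 2.07 in hippocampus are farthest to the right, and the genes of sugar chain synthesis gather around 0.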

How the data were processed

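Reads were assigned to libraries and genes by the authors with zUMIs, which aligns with STAR, against mouse genome build GRCm39 plus a GFP sequence, and the submitters' processing notes also name FastQC 0.11.8, cutadapt 1.12 and DESeq2 1.44. What the authors deposited is a table of raw, whole-number counts with a row per gene and a column per library. Whether they are molecules or reads, and whether strand was used in counting, is not given in the sources used here. Genes that overlap another on the opposite strand (Gm4117 at Vcan, Gm8546 at Hapln1, 8030451A03Rik at Tnc, Has2os at Has2) or on the same strand (Gm37731 at Tnr) are uncertain for this reason. Reads without molecular identifiers are not independent molecules, and the limits given for 0 counts cover counting error only. Symbols came from GENCODE M21 (GRCm38) by Ensembl identifier and matched 43308 of 64361 rows, with 96.1% of counts. The GFP row stayed out of totals and tests, and 0 columns were unused.

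The members, lists, tests and alternatives were chosen with earlier results of these data known. Groups, mouse numbers and batches came from the labels. CPM are counts divided by the library total, times 1e6. Each comparison was fitted in R 4.3.3 with edgeR 4.0.16 (TMM, filterByExpr with a minimum count of 10, quasi-likelihood F-test, batch as a term), Benjamini-Hochberg adjustment over all genes tested and a threshold of 0.05. DESeq2 is the tool of the study's own methods, with no covariate given. The standard error (SE) is the log2 fold change divided by the square root of F. The fits were tested on simulated data. Alternatives were DESeq2 1.42.0, limma-voom (limma 3.58.1), other size factors, filters on low counts (none, or 1 CPM), no batch term, thinned counts, each batch alone, the mouse as a block, each library left out, and the libraries rich in Ttr, or in Rorb (cortex markers above 1000 CPM), left out. The 46 pairs of libraries within groups differed by more than sampling noise (chi-square per degree of freedom 2.10 to 15.1).

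Libraries with the same mouse number come from the same animal, which is where the pairing of tissues comes from. Correlations of same-mouse deviations from the group means ranged from -0.172 to 0.317 over 10 mice. Named genes were the 10 members, up to 4 called genes per list and tissue with the lowest adjusted p (the 2 further calls per tissue of the receptor list were added with their values known), and for each member with an average log2 CPM of at least 4 the 3 genes with the highest within-group correlation (prior count 2). Each library came from a separate mouse within its tissue. From the list of hyaluronan genes 1 gene was left out, for a reason other than its values, and is not reported here, so the counts and medians of that list hold only for the 14 genes that remain.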

Additional observations from a re-analysis of the deposited data

Results flagged for a closer look

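In 40 groups of gene, tissue and genotype, 6 had a highest or lowest library whose gap to the next was large for the range of the group. Of these, 3 were groups of Has2 in which a single library had counts, where such a gap follows from the counts themselves, and 3 were among the other 36 groups, where chance alone gives about 1 in 20. In GA-Camk2a hippocampus the latter were the library of mouse 30 for Hapln1, the lowest at 7.76 CPM, and that of mouse 41 for Hapln2, the highest at 49.4 CPM, and for Tnc, the highest at 13.3 CPM from 20 counts. For Has2 they were single libraries with counts in groups otherwise at 0: 0.826 CPM (2 counts) in GA-Camk2a cortex of mouse 23, 0.954 CPM (1 count) in control cortex of mouse 11 and 0.974 CPM (3 counts) in control hippocampus of mouse 11. Neither Ncan nor Hapln4 had such a library in any group.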

How the results depend on the processing

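The number of members that passed in cortex, 1, became 0 with DESeq2, upper quartile normalization, no batch term, thinned counts or batch 1 alone. In hippocampus it went from 2 to 1 with thinned counts, with batch 2 alone and without the libraries rich in Ttr or in Rorb, and to 0 with batch 1 alone. In control mice, hippocampus against cortex, it went from 1 to 0 with DESeq2, no filter, no batch term, thinned counts, the mouse as a block and without the libraries rich in Ttr or in Rorb. With 1 library left out, the numbers ranged from 0 to 1 in cortex, 1 to 2 in hippocampus, 0 to 2 between tissues of control mice and 1 to 2 between tissues of GA-Camk2a mice. The number rose to 2 without the cortex control library of mouse 31, and without the cortex library of mouse 16 or the hippocampus library of mouse 35 among GA-Camk2a mice, each time with Tnr as the added gene. Treating the mouse as a block, the pairing of the tissues, gave 0 members in controls, with Hapln2 at -0.43, and changed no other call of a member.

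Changes of sign touched members that did not pass. Outside single omissions they were, in cortex, Hapln2 (log2 fold change -0.015 with limma-voom, -0.016 with no filter, -0.012 in batch 1), Hapln1 (-0.14 in batch 2) and Tnr (0.22 in batch 2). In hippocampus they were Bcan (-0.045 with no filter, -0.0044 with a filter of 1 CPM, -0.058 without the libraries rich in Ttr), Hapln1 (-0.080 in batch 1) and Vcan (-0.085 without those libraries). Between tissues they were Bcan in control mice under the block (-0.025), Bcan in GA-Camk2a mice with thinned counts (-0.038) and Hapln2 in GA-Camk2a mice without the libraries rich in Ttr (0.032). For the difference of the genotype effect they were Hapln1 with no filter (-0.0073), Bcan, Vcan and Tnr with thinned counts (0.041, -0.49 and -0.077), Bcan and Tnr under the block (0.066 and -0.062) Vcan without the libraries rich in Ttr (-0.37) and Bcan without those rich in Rorb (0.018). With 1 library left out, Bcan ranged from -0.084 to 0.16 in cortex, -0.023 to 0.060 in hippocampus, -0.051 to 0.16 and -0.035 to 0.092 between tissues of control and GA-Camk2a mice, and -0.12 to 0.077 for the difference of the effects. Hapln2 ranged from -0.088 to 0.12 in cortex, and for the difference of the effects Hapln1 ranged from -0.050 to 0.18, Vcan from -0.090 to 0.35 and Tnr from -0.025 to 0.16. The cause of these changes was not tested.

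Depth limits Acan, Tnc and Has2, which were under the filter in each comparison of all its libraries. Some of them passed it in hippocampus in batch 1 alone (9 members tested) and without the control library of mouse 31 (8). Single-batch fits rest on 2 to 4 libraries per group.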
